A study of Mus musculus with 4 samples.

Results

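The 10 genes described here belong to the BCL2 family and were followed in RPP631 cells, a line of mouse small cell lung cancer (SCLC) cells: 3 survival genes (Bcl2, Bcl2l1 and Mcl1) and 7 BH3-only genes (Bcl2l11, Bad, Bid, Bmf, Hrk, Pmaip1 and Bbc3). They were taken by gene symbol, and all 10 were found among the 54232 genes of the count table. Cells were kept for 48 h with 100 nM YKL, an inhibitor of CDK7 (a kinase of transcription and the cell cycle) going by the series title, or with the vehicle DMSO, and total RNA from the whole culture was sequenced, giving 2 YKL and 2 DMSO libraries. All 4 libraries come from 1 line, whose genotype the labels do not give. Whether replicates were grown as separate cultures is not stated either, so the p-values reflect the spread among these libraries, which may be technical. In bulk RNA, fewer cells of a type and less RNA per cell cannot be told apart.

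BCL2 family proteins decide whether the outer mitochondrial membrane stays closed. The survival proteins BCL2, BCL-XL (from Bcl2l1) and MCL1 hold the pore-forming proteins BAX and BAK in check, and the BH3-only proteins bind the survival proteins, or activate BAX and BAK directly, and so promote release of cytochrome c and cell death. MCL1 is a short-lived protein, BIM (from Bcl2l11) and PUMA (from Bbc3) bind all the main survival proteins, and NOXA (from Pmaip1) binds chiefly MCL1. SCLC cells commonly depend on these survival proteins.

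After YKL, the BH3-only genes Pmaip1 and Hrk rose 2.73-fold and 2.82-fold relative to DMSO. None of the 3 survival genes passed the test in either direction. The other 5 BH3-only genes did not pass it either, with Bad and Bcl2l11 above their DMSO level in both YKL libraries. Levels are given as CPM, counts scaled to a common library size after TMM normalization, and a gene was called at an adjusted p under 0.05 in edgeR's quasi-likelihood test with Benjamini-Hochberg adjustment over the 16749 genes tested. All 10 genes passed the filter on low counts. Of the 10, 2 were called higher and 0 lower, or 20%, beside 3.54% of all genes tested (2.1% higher and 1.44% lower). The 10 had a median log2 fold change of 0.26, the survival genes -0.08 and the BH3-only genes 0.62, beside -0.000136 for all genes tested. Since scaling places the middle of all genes near 0, these are relative levels, and a shift common to most transcripts would not appear in them.

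The libraries held between 29817387 and 34189709 counts. The DMSO libraries differed from each other more than the YKL libraries did, with a chi-square per degree of freedom of 37.1 within the YKL pair and 86.6 within the DMSO pair. The 8 neuroendocrine markers that define SCLC were all detected, with summed levels of 3312 to 3453 CPM in YKL and 3814 to 4489 CPM in DMSO. Summed markers of leukocytes (5 genes) reached 5.21 to 8.26 CPM in YKL and 3.14 to 5.04 CPM in DMSO, those of fibroblasts (5 genes) 18.1 to 44.6 CPM in YKL and 12.7 to 25.1 CPM in DMSO, those of endothelium (3 genes) 1.37 to 2.06 CPM in YKL and 1.17 CPM in both DMSO libraries, and those of other lung epithelium (4 genes) 14.9 to 16.1 CPM in YKL and 6.25 to 10.5 CPM in DMSO. Of these 17 non-tumour markers, those tested were 4 of leukocytes, 3 of fibroblasts, 2 of endothelium and 2 of other lung epithelium. Among them 1 was called higher, beside 2.1% of all genes tested. It was the leukocyte gene Ptprc, at 25 and 23 counts in YKL and 0 and 2 counts in DMSO. The epithelial sum was mostly Foxj1, a gene of ciliated cells, at 14.0 and 15.4 CPM in YKL and 8.58 and 4.89 CPM in DMSO, which DESeq2 called higher (adjusted p = 0.0288) and edgeR did not (adjusted p = 0.107), while Sftpc, a gene of alveolar cells, had 0.783 and 0.621 CPM in YKL and 1.88 and 1.11 CPM in DMSO. The fibroblast sum was mostly Pdgfra, at 43.1 and 17.6 CPM in YKL and 11.5 and 23.1 CPM in DMSO. The other fibroblast markers were near 0, with means over all 4 libraries of 0.390 CPM (Col1a1), 0.0403 (Col1a2), 0.821 (Dcn) and 0.0241 (Lum). Whether any such cells were present, and their part in the results below, was not tested.

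Promoter windows from RefSeq (GRCm38.p6, the assembly behind mm10) cover 250 bases before to 50 bases after an annotated start. They were taken by symbol for 9 of the 10 genes, in 17 windows. Pmaip1 was left out of this search, so the motifs of its promoter were not examined. Hrk, the called gene among these 9, is shown beside Mcl1, the survival gene with the fold change nearest to 0. A gene that rose can thus be read against one that did not pass the test. The Hrk window is chr5:118169514-118169813 on the plus strand and the Mcl1 window is chr3:95658471-95658770 on the plus strand. Capitals mark GC boxes (GGGCGG on either strand) and, in Hrk, an ATF4-type element (TGATGNAA on either strand).
Hrk: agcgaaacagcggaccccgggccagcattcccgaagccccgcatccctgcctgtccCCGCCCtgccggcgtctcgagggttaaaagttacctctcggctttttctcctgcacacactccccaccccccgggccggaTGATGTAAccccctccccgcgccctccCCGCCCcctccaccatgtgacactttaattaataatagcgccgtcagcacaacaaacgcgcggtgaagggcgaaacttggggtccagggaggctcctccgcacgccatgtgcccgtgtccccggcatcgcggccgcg
Mcl1: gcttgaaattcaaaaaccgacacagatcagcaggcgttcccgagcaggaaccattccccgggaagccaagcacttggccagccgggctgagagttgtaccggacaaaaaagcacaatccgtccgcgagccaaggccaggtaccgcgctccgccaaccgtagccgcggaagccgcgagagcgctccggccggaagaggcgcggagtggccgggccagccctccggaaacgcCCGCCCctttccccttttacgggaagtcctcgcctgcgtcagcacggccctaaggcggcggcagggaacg

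Hrk held 2 GC boxes and Mcl1 held 1, and GC boxes were found in 11 of the 17 windows, in 8 of the 9 genes, against 35.7% of all 32851 windows. Hrk was the 1 gene of the 9 with an ATF4-type element, which 3.97% of all windows hold. A FOXO site (GTAAACA) was found in a window of Bcl2l11 and in one of Bbc3, both known FOXO targets, and in 3.65% of all windows. None of the 17 windows held a TATA box (TATAAA) or a CRE (TGACGTCA), which are present in 13.6% and 1.79% of all windows. CCAAT boxes (CCAAT) lay in 6 of the 17 windows, from 4 genes, against 37.4% of all windows, and an E2F-type site (TTTNNCGC) lay in 1 window, of Bcl2l1, against 5.17%. Both strands were searched, no motif contains another, and a match describes letters and not binding. Hrk had 29 CpG dinucleotides and Mcl1 had 33, against a median of 7 over all windows. The RefSeq start of Hrk, at 118169764, lies downstream of its first base in the count table, at 118164648.

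Pmaip1 (ENSMUSG00000024521, chromosome 18, 66458604 to 66465550, mm10) encodes NOXA and is a known target of p53. It had 1543 and 1482 counts in YKL replicates 1 and 2, against 444 and 695 counts in DMSO replicates 1 and 2. Scaled, these were 50.4 and 46.0 CPM in YKL and 13.3 and 22.1 CPM in DMSO. Both YKL libraries stood above both DMSO libraries, and the spread lay mostly within DMSO. The log2 fold change was 1.45 ± 0.27 (standard error), with a 95% interval of 1.80-fold to 4.12-fold (adjusted p = 0.0264, edgeR), and Pmaip1 ranked 212 among the 16749 genes by p. Without YKL replicate 1 or YKL replicate 2 the call ended (adjusted p = 0.107 and 0.0910), at log2 fold changes of 1.39 and 1.51. It also ended with total count scaling (adjusted p = 0.0595) and without the robust prior (adjusted p = 0.05002), over a range of 3.18e-08 to 0.107 in all 12 refits.

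Hrk (ENSMUSG00000046607, chromosome 5, 118164648 to 118189478) encodes Harakiri, a BH3-only protein best known from neurons. It was counted 643 and 403 times in YKL and 180 and 204 times in DMSO, or 21.0 and 12.5 CPM in YKL against 5.38 and 6.47 CPM in DMSO. Here too the groups did not overlap, but the spread lay within YKL, where replicate 1 was well above replicate 2. The log2 fold change was 1.50 ± 0.35, with an interval of 1.65-fold to 4.83-fold (adjusted p = 0.0476, edgeR). The call stands close to the threshold: it held in 6 of 12 refits, with adjusted p between 0.000354 and 0.411, and it ended without YKL replicate 1 (log2 fold change 1.08) and without YKL replicate 2 (1.82). Total count and upper quartile scaling, the stricter filter and a fit without the robust prior ended it as well, at log2 fold changes of 1.50 to 1.52.

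**Figure D1:**
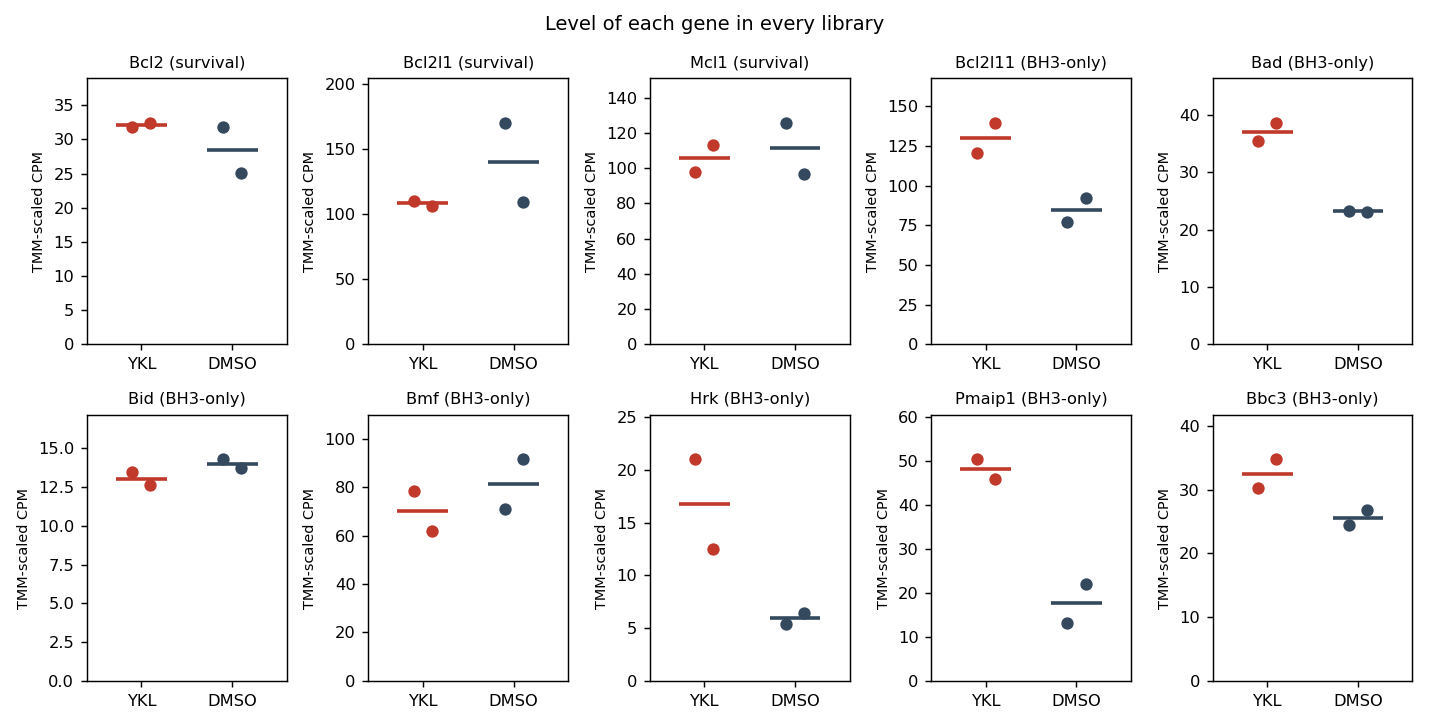
TMM-scaled CPM of each of the 10 genes in every library, YKL at left and DMSO at right; points are libraries and lines are group means, on axes that start at 0. Pmaip1 and Hrk show both YKL libraries above both DMSO libraries, at 50.4 and 46.0 CPM against 13.3 and 22.1 CPM for Pmaip1, whereas the Mcl1 libraries of the groups overlap.

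Bcl2l11 (chromosome 2, 128126038 to 128162547), which encodes BIM, and Bad (chromosome 19, 6941861 to 6951898), whose product is held inactive by phosphorylation downstream of growth factors, were higher in both YKL libraries but were not called. Bcl2l11 had 120 and 140 CPM in YKL and 77.1 and 92.4 CPM in DMSO (log2 fold change 0.62 ± 0.19, interval 1.14-fold to 2.06-fold, adjusted p = 0.105, edgeR). Bad had 35.5 and 38.6 CPM in YKL and 23.3 and 23.1 CPM in DMSO, the tightest DMSO pair of the 10 genes relative to its mean (log2 fold change 0.68 ± 0.21, interval 1.16-fold to 2.20-fold, adjusted p = 0.102). At an unadjusted p under 0.05 both belonged to the 4 of 10 genes that pass, beside 21.2% of all genes tested. DESeq2 called both (adjusted p = 0.0467 for Bcl2l11 and 0.0378 for Bad), so that it called 4 of the 10 genes, all higher, beside 11.6% of its genes (5.96% higher). Bcl2l11 was also called without DMSO replicate 2 (log2 fold change 0.72, adjusted p = 0.0295). Of the exonic bases of Bad, 25.8% are shared with Gpr137 on the other strand, which had 421 and 382 counts in YKL and 261 and 361 in DMSO, and the strand setting of the counting is not given in the sources used here. Reads in that stretch may thus be joined or lost.

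Bbc3 (chromosome 7, 16308393 to 16318205), which encodes PUMA and like Pmaip1 is a p53 target, had 30.3 and 34.7 CPM in YKL and 24.5 and 26.8 CPM in DMSO. Its groups did not overlap, but the log2 fold change of 0.34 ± 0.21 had an interval from 0.913-fold to 1.76-fold (adjusted p = 0.395, edgeR). It was called in 0 of 12 refits. Bid (chromosome 6, 120891930 to 120916853), whose product is cut by caspase-8 and carries death receptor signals to mitochondria, had 13.5 and 12.6 CPM in YKL and 14.3 and 13.7 CPM in DMSO. That is a log2 fold change of -0.10 ± 0.27, with an interval from 0.613-fold to 1.42-fold (adjusted p = 0.879), and 17.7% of its exonic bases are shared with Bcl2l13 on the other strand. Bmf (chromosome 2, 118528757 to 118549687), whose product is tied to the cytoskeleton until it is released, had 78.3 and 61.7 CPM in YKL and 70.9 and 91.4 CPM in DMSO (log2 fold change -0.21 ± 0.21, interval 0.624-fold to 1.19-fold, adjusted p = 0.616). Its libraries overlapped between the groups. Of the 10 genes, 6 had groups that did not overlap, 5 with YKL higher and 1 with YKL lower, an arrangement found in 52.3% of all genes tested (27% with YKL higher and 25.3% with YKL lower), so the count of 6 is near that background.

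Among the survival genes, Mcl1 (chromosome 3, 95658788 to 95663176) had 98.1 and 113 CPM in YKL and 126 and 97.0 CPM in DMSO. Both YKL values lay between the DMSO values, and the log2 fold change was -0.08 ± 0.20, with an interval of 0.696-fold to 1.29-fold (adjusted p = 0.874, edgeR). Bcl2 (chromosome 1, 106538178 to 106714274) had 31.8 and 32.4 CPM in YKL and 31.8 and 25.1 CPM in DMSO (log2 fold change 0.17 ± 0.22, interval 0.805-fold to 1.58-fold, adjusted p = 0.708). Its YKL libraries lay close together and the lower value came from DMSO replicate 2. Bcl2l1 (chromosome 2, 152780668 to 152831728) had 110 and 107 CPM in YKL and 170 and 109 CPM in DMSO. DMSO replicate 1 alone stood apart, and the log2 fold change of -0.37 ± 0.23 (interval 0.545-fold to 1.10-fold, adjusted p = 0.398) was -0.01 without DMSO replicate 1 and -0.69 without DMSO replicate 2, where it was called (adjusted p = 0.0278). The intervals exclude a 2-fold fall for Mcl1, Bcl2 and Bcl2l1, and a 2-fold rise for all 3, in the fit with all libraries.

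**Figure D2:**
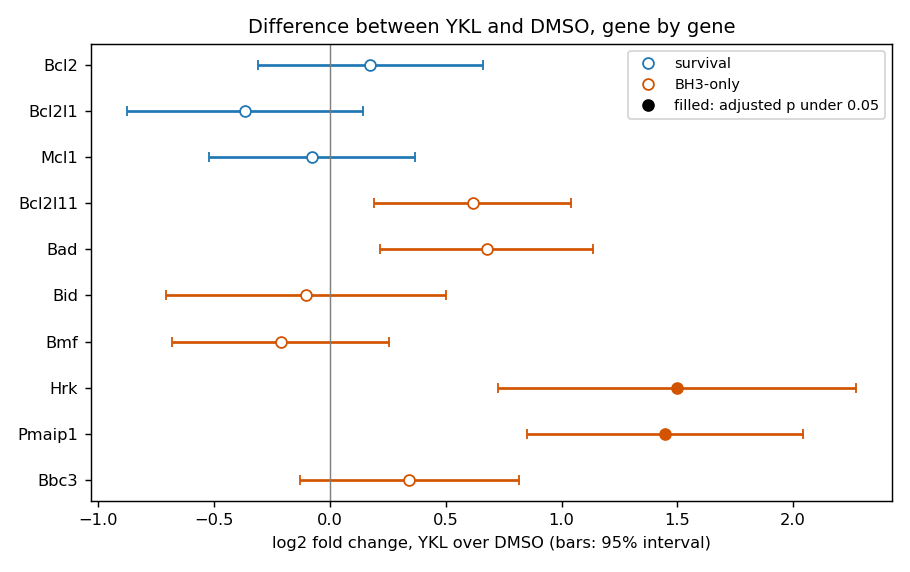
Log2 fold change of each gene, YKL over DMSO, with 95% intervals from edgeR; survival genes in blue, BH3-only genes in orange, and filled points mark an adjusted p under 0.05. The 2 filled points are Hrk at 1.50 and Pmaip1 at 1.45, and the intervals of Bcl2, Bcl2l1, Mcl1, Bid, Bmf and Bbc3 include 0.

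The authors' deposited table, from their own DESeq2 comparison, listed adjusted p-values under 0.05 for 4 of the 10 genes, all higher in YKL. Of the 15936 genes with an adjusted p-value there, 27.8% were under 0.05 (13.9% higher). The authors' deposited table gave Pmaip1 a log2 fold change of 1.33 (adjusted p = 2.91e-11) and Hrk 1.22 (adjusted p = 5.75e-06). In the authors' deposited table Bad had 0.60 (adjusted p = 0.00711) and Bcl2l11 0.57 (adjusted p = 0.000346). For Mcl1, Bcl2l1 and Bcl2 the authors' deposited table gave -0.09, -0.34 and 0.15, with adjusted p-values of 0.721, 0.108 and 0.562. All 10 signs matched those of the edgeR fit.

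To compare genes with each other, levels were divided by exonic length in kilobases (kb). In YKL the order of mean level ran Mcl1 (30.9 ± 3.11 CPM per kb, SD, n = 2), Bcl2l1 (23.7 ± 0.553), Bad (18.5 ± 1.11), Pmaip1 (18.2 ± 1.16), Bcl2l11 (16.2 ± 1.69), Bbc3 (15.3 ± 1.49), Bmf (13.3 ± 2.24), Bid (3.68 ± 0.168), Bcl2 (3.51 ± 0.0527) and Hrk (2.95 ± 1.06). In DMSO it ran Mcl1 (32.6 ± 5.98), Bcl2l1 (30.5 ± 9.43), Bmf (15.4 ± 2.76), Bbc3 (12.1 ± 0.775), Bad (11.6 ± 0.0444), Bcl2l11 (10.6 ± 1.35), Pmaip1 (6.67 ± 2.35), Bid (3.95 ± 0.110), Bcl2 (3.11 ± 0.518) and Hrk (1.04 ± 0.136). Per length, Mcl1 and Bcl2l1 were the most abundant of the 10 in both groups, and Bcl2 was the least abundant survival gene. Without the division by length, Bcl2l11 had the highest mean in YKL (130 CPM, against 108 for Bcl2l1 and 106 for Mcl1). In DMSO, Bcl2l1 and Mcl1 were highest without it too (140 and 111 CPM). The exonic length counted here need not be that of the transcript expressed. Pmaip1 stood 4th in YKL, against 7th in DMSO, and Bmf stood 7th in YKL, against 3rd in DMSO. Neighbours whose libraries overlapped were Bad and Pmaip1, Pmaip1 and Bcl2l11, Bcl2l11 and Bbc3, Bbc3 and Bmf, and Bcl2 and Hrk in YKL, and Mcl1 and Bcl2l1, and Bbc3 and Bad, in DMSO. Hrk rose and was the least abundant of the 10 genes per length in both groups.

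Ratios within a library do not depend on scaling between libraries. The 7 BH3-only genes summed to 88.4 and 87.9 CPM per kb in YKL replicates 1 and 2, against 56.2 and 66.4 in DMSO replicates 1 and 2. The 3 survival genes summed to 56.2 and 59.9 CPM per kb in YKL and 77.4 and 54.9 in DMSO. The BH3-only sums did not overlap between the groups, and the survival sums did. Divided within each library, the BH3-only sum over the survival sum was 1.57 and 1.47 in YKL and 0.726 and 1.21 in DMSO, which is 1.62-fold higher in YKL as a geometric mean (log2 difference 0.70). It is given as a description of these libraries. The log2 difference was 0.33 without DMSO replicate 1 and 1.07 without DMSO replicate 2, and 0.53 with Pmaip1 left out of the sum. Pmaip1 made up 21.5% and 19.8% of the BH3-only sum in YKL, against 8.93% and 12.6% in DMSO, and Bmf 16.9% and 13.4% in YKL, against 24.0% and 26.2% in DMSO. Bcl2l11 took 17.0% and 19.8% in YKL and 17.1% and 17.3% in DMSO.

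**Figure D3:**
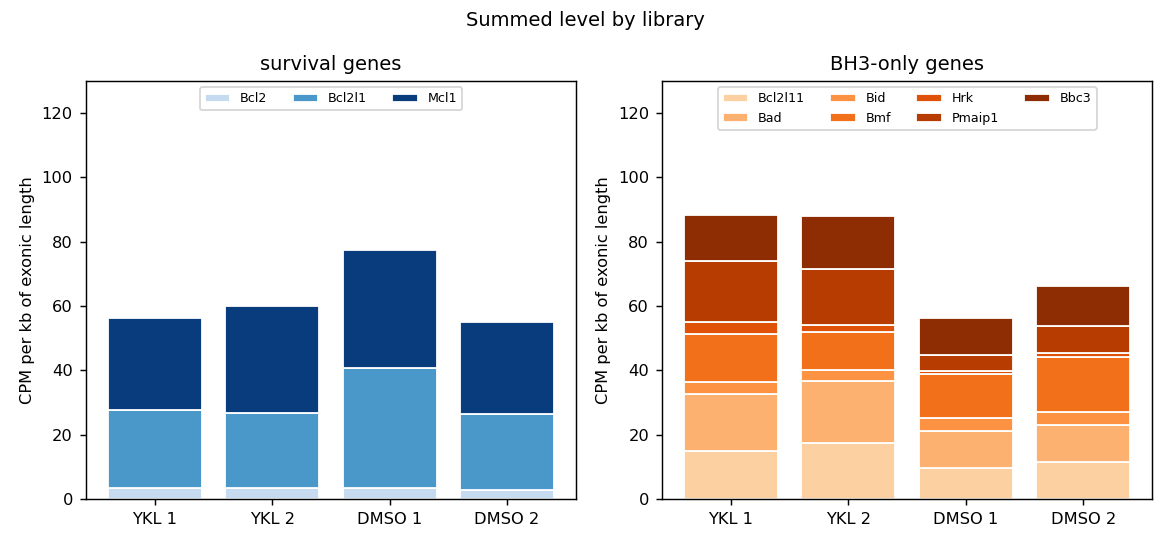
Summed CPM per kb of exonic length in each library for the survival genes (left) and the BH3-only genes (right), stacked by gene, with YKL libraries left of DMSO libraries. The BH3-only stacks reach 88.4 and 87.9 in YKL and 56.2 and 66.4 in DMSO, and the survival stack of DMSO replicate 1, at 77.4, is the highest of its panel.

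NOXA binds MCL1, and the ratio of Pmaip1 to Mcl1 per kb was 0.663 and 0.525 in YKL and 0.136 and 0.294 in DMSO. Both YKL ratios exceeded both DMSO ratios, by 2.95-fold in the geometric mean (log2 difference 1.56). A two-sided exact permutation test gave p = 0.333, the smallest value that this test can give with 2 libraries against 2. Without DMSO replicate 1 the log2 difference was 1.01 and without DMSO replicate 2 it was 2.12. Mcl1 itself was 1.19 and 1.42 times the level of Bcl2l1 in YKL and 0.991 and 1.19 times in DMSO.

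**Figure D4:**
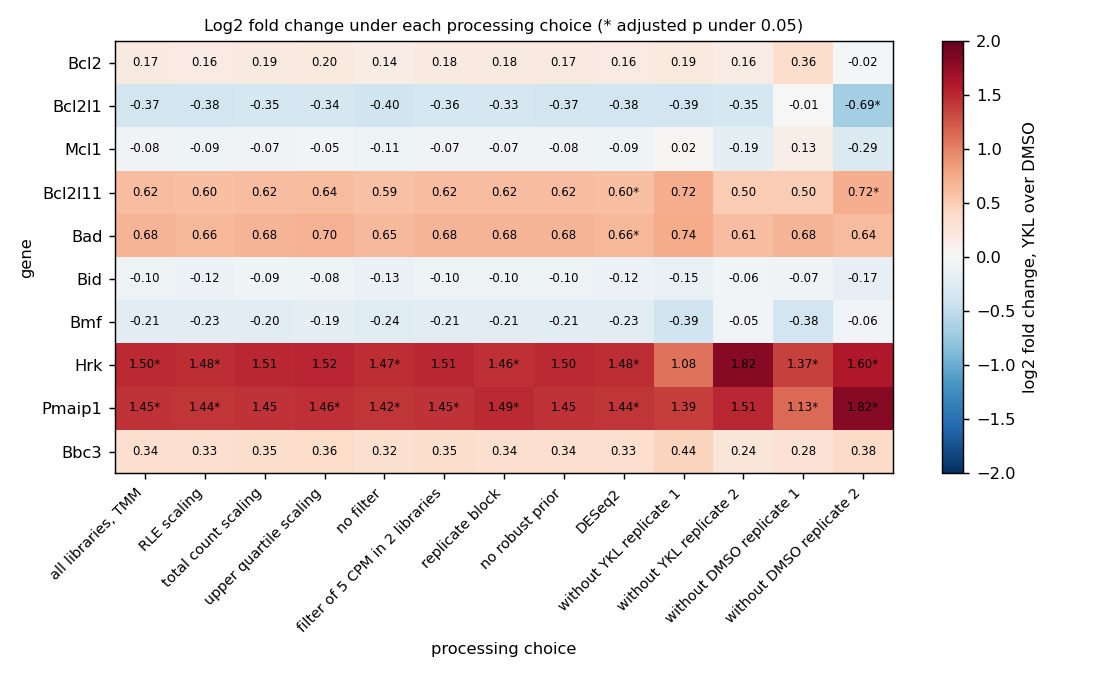
Log2 fold change of the 10 genes (rows) under each processing choice (columns), coloured from blue (lower in YKL) to red (higher in YKL), with an asterisk where the adjusted p is under 0.05. Hrk and Pmaip1 stay above 1 in every column, Bcl2l1 carries an asterisk only without DMSO replicate 2, and Mcl1 is the gene whose sign turns in 2 columns.

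The genes that act beside and after these 10 in apoptosis were mostly not called. Of 68 such genes in 8 lists, 61 were tested and 1 was called, or 1.64%, beside 3.54% of all genes tested. Their median log2 fold change was 0.02. At an unadjusted p under 0.05 there were 13 of the 61, beside 21.2% of all genes tested. DESeq2 called 5 higher and 3 lower, beside 11.6% of its genes in either direction. The gene called by edgeR was Birc5, which encodes survivin, an inhibitor of apoptosis protein that also serves in cell division. It fell to 92.3 and 74.7 CPM in YKL, against 212 and 171 CPM in DMSO (log2 fold change -1.20 ± 0.20, adjusted p = 0.0201, edgeR), and kept its call in 10 of 12 refits, losing it without YKL replicate 1 or YKL replicate 2. Of the 5 inhibitors of apoptosis tested, Birc5 was thus the 1 called, while the caspase inhibitor gene Xiap had 303 and 330 CPM in YKL and 309 and 308 CPM in DMSO. The large inhibitor Birc6 had a log2 fold change of 0.28 ± 0.18.

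Of 13 other BCL2 family genes 8 were tested and 0 were called, at a median log2 fold change of -0.07, with 4 at an unadjusted p under 0.05 and 2 called by DESeq2. The members with the highest CPM, not divided by length, were Bcl2l13, which encodes a mitochondrial membrane protein, and Bok, which encodes a BAX-like pore protein. Bok had 97.4 and 88.7 CPM in YKL and 60.9 and 44.9 CPM in DMSO (log2 fold change 0.81 ± 0.21, adjusted p = 0.0620, edgeR) and was called in 4 of 12 refits, DESeq2 among them. The second DESeq2 call, Bcl2l14, which was picked out after its value was seen, was lower at 9.40 and 8.13 CPM in YKL and 14.7 and 18.3 CPM in DMSO. Bax and Bak1, the pore genes that the survival proteins restrain, likewise named after their values were seen, had log2 fold changes of -0.06 ± 0.20 and -0.67 ± 0.25 (adjusted p = 0.899 and 0.167). The Bcl2a1 copies, near-identical to each other, had at most 5 counts in any library and were not tested.

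Of 8 genes for the apoptosome and factors released from mitochondria 0 were called (median 0.20, 2 at an unadjusted p under 0.05, and 2 higher by DESeq2). The DESeq2 calls, named after their values were seen, were Cycs, which encodes cytochrome c (13.7 and 14.8 CPM in YKL, 7.32 and 3.93 CPM in DMSO), and Endog, a mitochondrial nuclease (8.97 and 12.4 CPM in YKL, 2.93 and 5.77 CPM in DMSO). The fusion and fission genes Opa1 and Dnm1l, highest in that list by CPM, not divided by length, had log2 fold changes of -0.20 ± 0.19 and -0.08 ± 0.18. Of 8 caspases tested 0 were called (median 0.14, 2 at an unadjusted p under 0.05, 0 by DESeq2). Casp2 had a log2 fold change of -0.25 ± 0.19.

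Of 6 tested death receptor and adaptor genes 0 were called (median 0.26, 1 at an unadjusted p under 0.05, and 1 higher by DESeq2). That 1 was the kinase gene Ripk1, at 82.2 and 85.0 CPM in YKL and 56.1 and 49.2 CPM in DMSO (adjusted p = 0.0798, edgeR; called in 3 of 12 refits), and the TNF receptor gene Tnfrsf1a had a log2 fold change of 0.50 ± 0.24 (called without DMSO replicate 1, adjusted p = 0.0296). Of 12 transcription factors known to act on BH3-only genes 0 were called (median 0.02, 3 at an unadjusted p under 0.05). DESeq2 called 1 higher, the p53 relative Trp73, named after its value was seen, at 100 and 112 CPM in YKL and 62.1 and 68.6 CPM in DMSO, and 1 lower, Atf4. Atf4, the factor of the integrated stress response, had 182 and 103 CPM in YKL and 454 and 275 CPM in DMSO (log2 fold change -1.36 ± 0.35, adjusted p = 0.0998, edgeR). It was called in 5 of 12 refits, among them DESeq2, no filter, without YKL replicate 1 and without DMSO replicate 2, with adjusted p from 4.52e-11 to 0.263 over all 12. Mycl, a MYC family gene typical of SCLC, had a log2 fold change of -0.09 ± 0.24. Of 7 genes for ligases and deubiquitinases of the MCL1 protein 0 were called (median 0.02, 0 at an unadjusted p under 0.05, 0 by DESeq2), with Huwe1 and Usp9x at -0.22 ± 0.18 and 0.09 ± 0.22. The 7 genes for BNIP3-type proteins and voltage-dependent channels held 0 calls by either tool (median -0.14, 0 at an unadjusted p under 0.05), with Vdac1 and Bnip3l at 0.13 ± 0.20 and -0.19 ± 0.31.

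**Figure D5:**
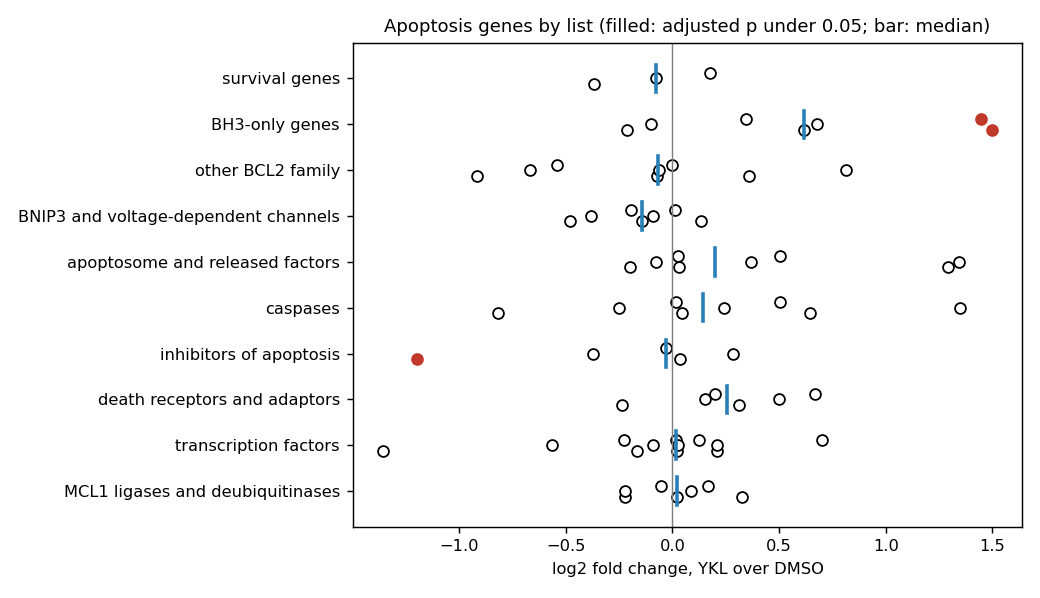
Log2 fold change, YKL over DMSO, of every tested gene in the survival and BH3-only groups and in 8 further apoptosis lists; each circle is a gene, filled where the adjusted p is under 0.05, and the bar is the list median. The filled circles are Pmaip1, Hrk and, on the lower side, Birc5 at -1.20.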

How the data were processed

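The authors deposited raw counts per gene and library, made with STAR 2.5.2b (genome build mm10) and featureCounts, per the submitters' processing notes. The strand setting is not given in the sources used here. The authors' deposited DESeq2 table gives, per gene, p-values (raw and adjusted), the log2 fold change and its error, the Wald score and the mean normalized signal, and served only for comparison. Positions and exonic lengths came from the count table and symbols from the deposited gene annotation.

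YKL was compared with DMSO on the raw counts in edgeR 4.0.16 (R 4.3.3): filterByExpr (minimum count 10, minimum total 15), TMM scaling, and a quasi-likelihood F test (robust prior, 2 residual degrees of freedom). Standard errors are the absolute log2 fold change over the square root of F. Alternatives were scaling by upper quartile, RLE or total count, a filter of 5 CPM in 2 libraries or none, no robust prior, a replicate block, DESeq2 1.42.0 on the filtered genes, and each library left out. The procedure was tested on simulated data. The 10 genes, the lists and the tests were chosen with earlier results of these data known. In the further lists, called genes and the 2 with the highest mean CPM were named, and some results are not reported here. Intervals cover the fitted spread. Figures were drawn with matplotlib 3.10.9.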

Additional observations from a re-analysis of the deposited data

How the results depend on the processing

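Instead of 593, the number of genes called was 169 with total count scaling, 331 with upper quartile scaling, 236 without the robust prior, 1740 without the filter and 1599 by DESeq2, and it ran from 71 to 2453 when 1 library was left out. Instead of 2 of the 10 genes, 0 were called with total count scaling, 1 with upper quartile scaling, 1 with the filter of 5 CPM in 2 libraries, 0 without the robust prior and 4 by DESeq2, and 0 to 4 with 1 library left out. The replicate block gave 1387 calls, with 2 of the 10 genes called, and the correlation of deviations of same-numbered libraries was 0.15; with 2 pairs and no label that ties them, the libraries share only a number. The causes of these changes were not tested. Signs turned in single left-out fits of genes that were never called there: the range over the 12 refits was -0.022 to 0.36 for Bcl2, -0.29 to 0.13 for Mcl1 (0.02 without YKL replicate 1), -0.60 to 0.35 for Bnip3l, -0.044 to 0.30 for Vdac1, -0.032 to 0.10 for Xiap (-0.0024 without DMSO replicate 2), -0.50 to 0.23 for Mycl and -0.22 to 0.34 for Usp9x. Pmaip1 ran from 1.13 to 1.82 and Hrk from 1.08 to 1.82. The log2 difference of the BH3-only to survival ratio ran from 0.33 to 1.07 and that of Pmaip1 to Mcl1 from 1.01 to 2.12.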

Other observations

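Bnip3, a hypoxia-inducible gene for a BH3-containing mitochondrial protein, was picked out after its values were seen. It had 222 and 251 CPM in YKL replicates 1 and 2 and 63.2 and 554 CPM in DMSO replicates 1 and 2. Both YKL values lay between the DMSO values, and the log2 fold change of -0.38 ± 1.27 (adjusted p = 0.914, edgeR's quasi-likelihood test) was not called. Its relative Bnip3l had 382 and 350 CPM in YKL and 281 and 555 CPM in DMSO. Between the same DMSO libraries Bcl2l1 had 170 CPM in replicate 1 and 109 CPM in replicate 2, and Pmaip1 had 13.3 and 22.1 CPM.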
